A study of Mus musculus with 16 samples.

Results

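Translation initiation factors are the proteins that bring the initiator tRNA, the small ribosomal subunit and the mRNA together and set the ribosome on the start codon. Their genes were taken as every row of the authors' deposited table whose symbol begins with Eif1 to Eif6, leaving out the eIF2 kinases (Eif2ak), the inhibitory binding proteins of eIF4E (Eif4ebp) and the eIF4E transporter (Eif4enif). This gave 46 genes of the 10208 in the table, each with a single row. They comprised 5 genes of the eIF1 group, 4 of eIF2, 5 of eIF2B, 14 of eIF3, 11 of eIF4 and 4 of eIF5, and 3 further genes, for eIF2A, eIF2D and eIF6. The rule used names only, with earlier results of these data known, and genes without a row are not among them.

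RNA came from pancreatic islets of adult mice of a mixed, mostly C57Bl/6 background, isolated 6 days after tamoxifen. All 16 samples carry the same genotype label, Ins1-/-:Ins2f/f:Pdx1CreERT:mTmG, so both groups lack Ins1, carry a loxP-flanked Ins2, the other insulin gene, and are labelled with a tamoxifen-activated Cre recombinase under Pdx1 control and a fluorescent reporter of recombination (mTmG). They differ in the treatment label, Cre+T (7 samples) or Cre-T (9 samples), and it is not stated whether Cre-T mice carried the transgene, how old the mice were or whether a sample is 1 animal. The question was how islets change after acute loss of Ins2. Only the authors' table of voom and limma results was analysed, which holds no values per sample, so the depth per sample is unknown and no value per sample can be shown. The labels state 20000000 read pairs of 150 bp for each sample.

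The table does not name its direction, which was taken as Cre+T over Cre-T from the negative value of Ins2 (-0.47 ± 0.17 on the log2 scale) and the positive value of Esr1, whose receptor domain is part of CreERT (9.30 ± 0.39), per the authors' deposited table, so neither is a test of the labels. The Esr1 transcript thus differed between the groups as well as Ins2, and the part of each in the results below was not tested. Errors after ± are standard errors, computed as fold change over moderated t. The p-values reflect only how far the fitted samples vary, which may be partly technical. The beta-cell markers Ins2 and Iapp had mean levels of 16.34 and 14.66 log2 CPM (counts scaled to library size) per the authors' deposited table, and the alpha-cell marker Gcg 14.13. Of 11 measured acinar markers 11 rose, with log2 fold changes of 1.72 to 3.70 per the authors' deposited table, while Ptf1a had no row. Among other markers measured, 3 of 4 for red cells, 2 of 6 for leukocytes, 1 of 6 for endothelium and 5 of 9 for beta cells rose, while 1 beta-cell, 1 of 5 ductal and 2 of 7 other endocrine markers fell per the authors' deposited table. The part of these other cells in the results below was not tested, and in bulk tissue fewer cells of a type and less RNA per cell cannot be told apart.

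In outline, eIF2 carries the initiator tRNA in its GTP form, and eIF2B exchanges the nucleotide that recharges it. Phosphorylation of the alpha subunit of eIF2 turns it into an inhibitor of eIF2B, which is how the stress kinase PERK slows protein synthesis, a control that beta cells rely on because of their high output of proinsulin. The large complex eIF3 holds the pre-initiation complex on the small ribosomal subunit, the eIF4 proteins bind the cap of the mRNA and unwind its leader, and eIF5 and eIF5B act at start codon recognition and subunit joining.

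Initiation factor genes moved in both directions and mostly by small amounts. Of the 46 genes, 10 rose, 6 fell and 30 did not pass a limma adjusted p of 0.05, per the authors' deposited table. That is 34.8% called, beside 37.6% of all rows (17.6% higher and 20.1% lower), so the share of initiation factor genes called lay near the background. The median log2 fold change of the 46 was 0.053, against -0.0030 over all rows of the authors' deposited table. The sizes were modest. Only Eif3c, which fell to 0.605 of the Cre-T level, and Eif3m, which rose 1.54-fold, moved by more than 0.5 log2 units. That is 4.35% of the 46 genes, beside 17.4% of all rows of the authors' deposited table. The median absolute log2 fold change differed less, at 0.16 beside 0.20 over all rows. The median standard error was 0.072 for the 46 genes and 0.10 over all rows, so these shares are not matched for precision. The genes were well expressed, with mean levels of 4.32 to 10.12 and a median of 6.70 log2 CPM per the authors' deposited table, where the median over all rows was 5.21.

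**Figure D1:**
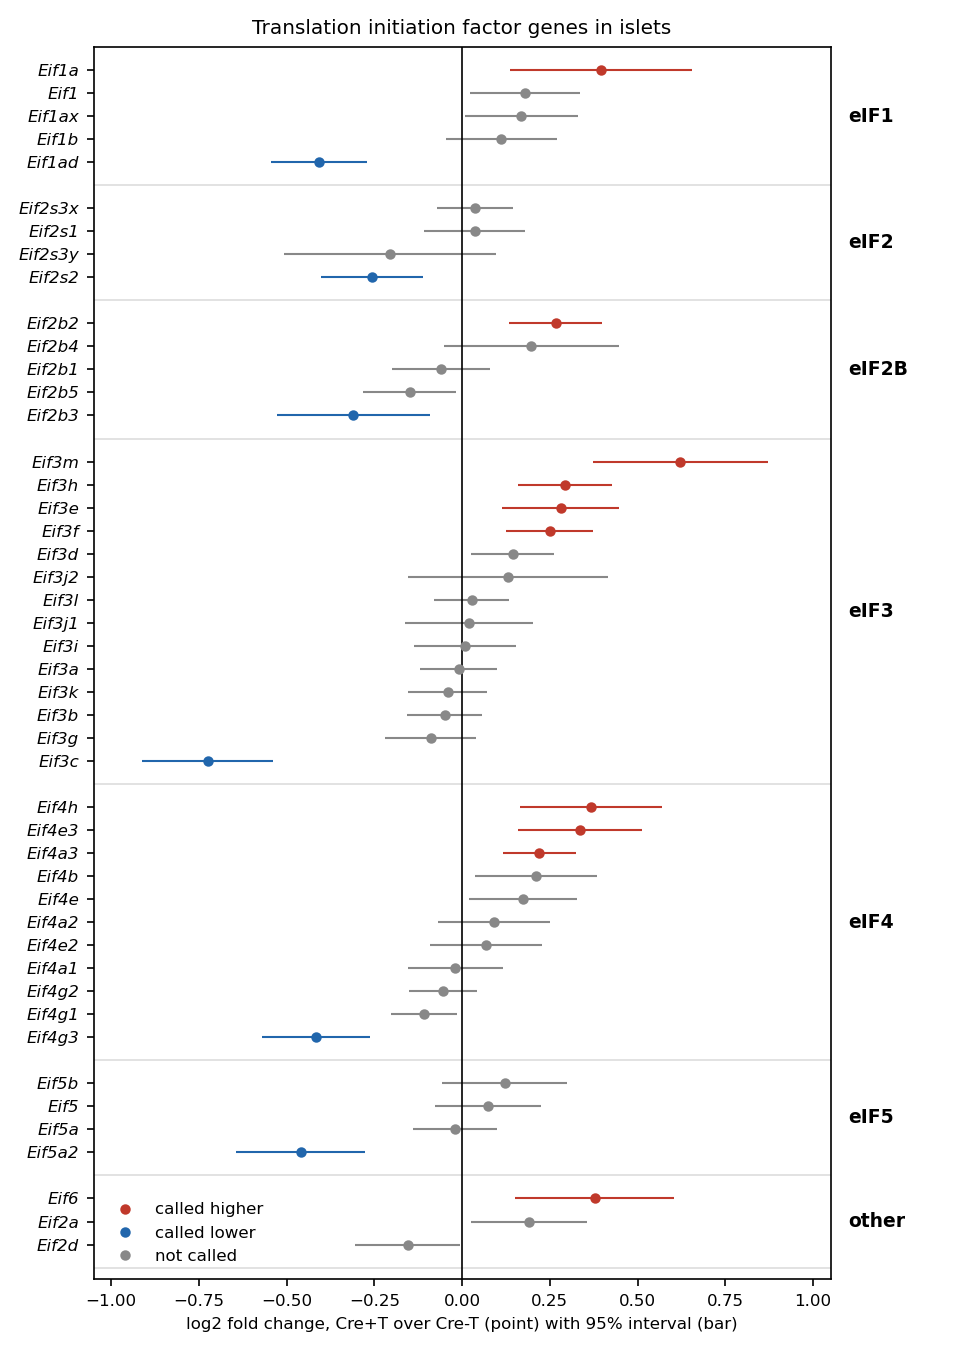
Log2 fold change (Cre+T over Cre-T, horizontal axis) of each of the 46 initiation factor genes with its 95% interval, ordered within groups; red and blue mark genes called higher and lower at a limma adjusted p under 0.05. Eif3m and Eif3c stand at the ends of the range, at 0.62 and -0.72, and the eIF2, eIF2B, eIF3, eIF4 and eIF5 groups each hold genes within 0.1 of 0.

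The split of directions depends on how the groups are scaled to each other. With every fold change lowered by 0.14 log2 units, which makes the summed expression of the groups equal, 1 initiation factor gene was higher and 17 were lower, in place of 10 and 6, beside 860 higher and 3934 lower over all rows. Those sums were rebuilt from mean levels and fold changes, taking all 7 Cre+T and 9 Cre-T samples as fitted. The most abundant genes weigh most in them. With the median cytosolic ribosomal protein gene set to 0, a shift of 0.067, 10 were higher and 10 lower, beside 1248 and 2820 over all rows. By group, equal summed expression gave 1 higher and 5 lower for eIF3 (4 and 1 under the authors' scaling) and 0 and 4 for eIF4 (3 and 1). The 6 that fell passed under both shifts, and of the 10 that rose only Eif3m passed when summed expression was made equal. Directions below are therefore relative to the authors' scaling.

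**Figure D2:**
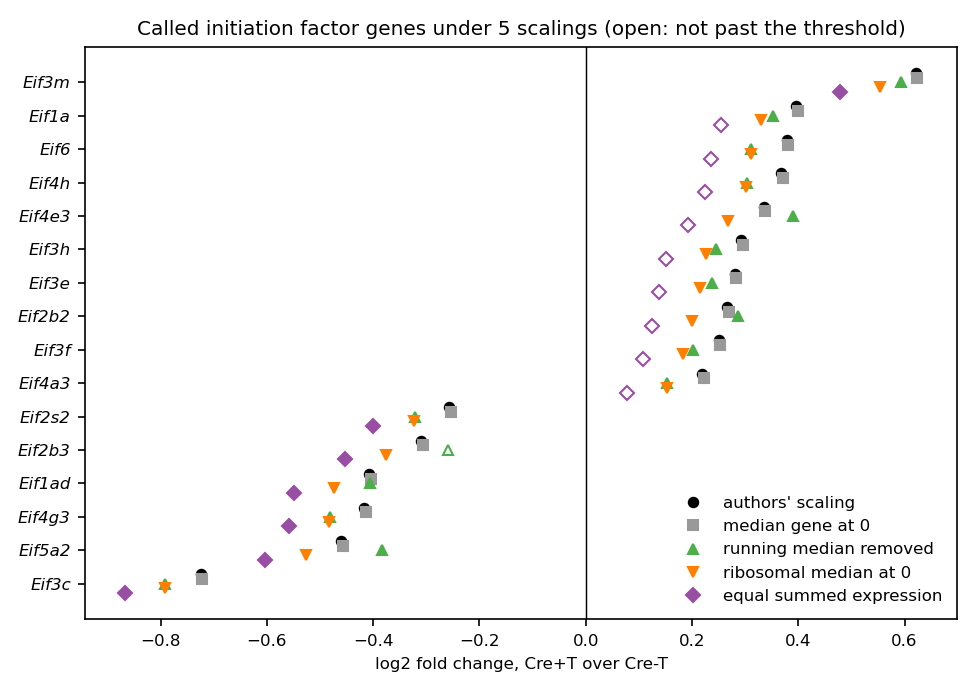
Log2 fold change (Cre+T over Cre-T) of the 16 called initiation factor genes under the authors' scaling and 4 others; filled symbols are past the adjusted p of 0.05 and open symbols are not. Under equal summed expression Eif3m stands at 0.48 and remains past the threshold, while the other 9 genes that rose do not; the 6 lower genes stay to the left of 0 in each scaling, with Eif2b3 open where the running median is removed.

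The eIF2 trimer showed 1 change in its subunits. Eif2s2, which encodes the beta subunit, which contacts eIF5, fell to 0.837 of the Cre-T level, at -0.26 ± 0.069 log2 units (limma adjusted p = 0.00985) per the authors' deposited table. The gene lies on chromosome 2 from 154871410 to 154892935 (GRCm38). Its longest transcript shares 22.4% of its 75-base words with the transcript of Gm9892, so reads of these genes may be divided between them. Eif2s1, the alpha subunit that PERK phosphorylates, stood at 0.036 ± 0.068 log2 units (limma adjusted p = 0.697) per the authors' deposited table. Its 95% interval of the fold, 0.928 to 1.13, bounds a change in either direction. The gamma subunit, which binds GTP and the initiator tRNA, has a copy on each sex chromosome in the mouse. Eif2s3x stood at 0.038 ± 0.051 (limma adjusted p = 0.578) and Eif2s3y at -0.21 ± 0.14 (limma adjusted p = 0.266) per the authors' deposited table. Eif2s3x shares 35.7% of its 75-base words with Gm2223, so its value is uncertain. Of the other Y-linked genes, Ddx3y (0.53 ± 0.17, limma adjusted p = 0.0226) and Uty (0.19 ± 0.066, limma adjusted p = 0.0336) rose and Kdm5d was at -0.16 ± 0.094 (limma adjusted p = 0.180) per the authors' deposited table, where Xist had no row. The Y-linked genes therefore had fold changes of both signs.

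The 5 subunits of eIF2B, the exchange factor for eIF2, were split. Eif2b2, the beta subunit of the regulatory core that senses phosphorylated eIF2, rose 1.203-fold, by 0.27 ± 0.062 log2 units at a limma adjusted p of 0.00508 per the authors' deposited table. Eif2b3, the gamma subunit that pairs with the catalytic epsilon subunit, fell to 0.807 of the Cre-T level, at -0.31 ± 0.10 at a limma adjusted p of 0.0272 per the authors' deposited table. Once the running median of genes of like expression was removed, Eif2b3 no longer passed, with an adjusted p of 0.0575; the alternatives spanned 0.0023 to 1, the highest with Holm adjustment. Eif2b5, the catalytic epsilon subunit, stood at -0.15 ± 0.063, at a limma adjusted p of 0.0714 per the authors' deposited table. Eif2b1, the alpha subunit, was at -0.061 ± 0.066 (limma adjusted p = 0.484) and Eif2b4, the delta subunit, at 0.20 ± 0.12 (limma adjusted p = 0.194) per the authors' deposited table. Both subunits of the catalytic pair had negative values, and of the 3 regulatory subunits 1 rose and the other two did not pass. Eif2b2 is annotated on chromosome 12 from 85219481 to 85226628 and Eif2b3 on chromosome 4 from 117019402 to 117087306, and no 75-base word of either occurs in another annotated transcript.

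Of the initiation factor groups, eIF3 had the widest range of fold changes, set by Eif3c and Eif3m. Its median absolute log2 fold change, beside 0.16 for all 46 genes, was 0.11. Of its 14 genes, 4 rose, 1 fell and 9 did not pass; the median was 0.023 log2 units, per the authors' deposited table. Eif3c, one of the scaffold subunits on which the complex is built, fell to 0.605 of the Cre-T level, with a 95% interval of 0.532 to 0.689. Its log2 fold change of -0.72 ± 0.088 had a limma adjusted p of 0.00013, which ranked 28 by p over all rows of the authors' deposited table. Eif3m, a subunit of the same core, rose 1.54-fold (95% interval 1.29 to 1.83), by 0.62 ± 0.12 log2 units at a limma adjusted p of 0.00161 per the authors' deposited table. The intervals of these genes lie on opposite sides of 0 and far apart. Their difference was not tested.

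The other 3 that rose encode further subunits of that core. Eif3h rose by 0.29 ± 0.063 log2 units (limma adjusted p = 0.00317), Eif3e by 0.28 ± 0.079 (limma adjusted p = 0.0125) and Eif3f by 0.25 ± 0.058 (limma adjusted p = 0.00504) per the authors' deposited table. These are rises of 1.19-fold to 1.23-fold. Eif3d, the subunit that can bind the cap of certain mRNAs, came close to the threshold, at 0.14 ± 0.056 at a limma adjusted p of 0.0529 per the authors' deposited table. The largest scaffold, Eif3a, stood at -0.0088 ± 0.052, with a 95% interval of the fold of 0.921 to 1.072 per the authors' deposited table. Eif3b (-0.049 ± 0.050), Eif3g (-0.089 ± 0.061) and Eif3i (0.0088 ± 0.068), which form a peripheral module, did not pass per the authors' deposited table, and nor did Eif3k (-0.041 ± 0.054) and Eif3l (0.027 ± 0.051). All 5 called genes were among the 8 of the octamer core (subunits a, c, e, f, h, k, l and m), and none among the 6 outside it by limma, where 1, Eif3d, had an unadjusted p under 0.05. That division was made after the values were seen. For eIF3 as a whole the share called was 35.7%, beside 37.6% of all rows. Eif3j1 (0.019 ± 0.086) and Eif3j2 (0.13 ± 0.13), for the loosely bound j subunit, did not pass per the authors' deposited table, and they are uncertain because 87.4% of the 75-base words of Eif3j2 occur in Eif3j1.

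Positions of the called eIF3 genes on GRCm38 are chromosome 7 from 126546455 to 126566411 for Eif3c, chromosome 2 from 104999656 to 105017080 for Eif3m, chromosome 15 from 51786558 to 51865523 for Eif3h, chromosome 15 from 43250058 to 43282719 for Eif3e and chromosome 7 from 108934417 to 108942951 for Eif3f. Sequence shared with other annotated transcripts was 4.65% of 75-base words for Eif3c, 21.9% for Eif3m, 16.7% for Eif3h, 7.89% for Eif3e and 0 for Eif3f. For Eif3m most of it is shared with Gm7658 and for Eif3h all of it with AC122253.2, so part of the reads of these genes could have been assigned elsewhere.

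Many mRNAs of the translation machinery begin with a run of pyrimidines, through which mTORC1 signalling controls their translation. Start sites were therefore searched for a run of at least 8 C or T bases that covers the first transcribed base, in RefSeq windows on GRCm38.p6 of 250 bases before to 50 after each start, on the strand of the gene. Of the initiation factor genes 37 matched, with 46 windows. Genes without a window, and so not searched, were Eif1a, Eif2b3, Eif3e, Eif3h, Eif3i, Eif3j2, Eif4e3, Eif4g2 and Eif6. Such a run was found in 4 of the 46 windows, those of Eif3f, Eif3l, Eif2s3x and Eif2b5. That is a larger share than the 3.86% of all 32851 windows, but it rests on 4 windows and was not tested. The 4 windows are shown with the eIF3 genes of largest change, Eif3c and Eif3m. Each gives the 40 bases before and 20 bases from the start, with the run in capitals.
Eif3c, chr7:126566347-126566406, minus strand: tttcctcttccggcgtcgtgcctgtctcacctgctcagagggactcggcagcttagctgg
Eif3m, chr2:105017008-105017067, minus strand: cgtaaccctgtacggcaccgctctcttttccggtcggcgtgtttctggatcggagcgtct
Eif3f, chr7:108934375-108934434, plus strand: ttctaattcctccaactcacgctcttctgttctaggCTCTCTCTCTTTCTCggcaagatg
Eif3l, chr15:79075183-79075242, plus strand: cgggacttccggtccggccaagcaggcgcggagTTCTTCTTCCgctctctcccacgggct
Eif2s3x, chrX:94212632-94212691, minus strand: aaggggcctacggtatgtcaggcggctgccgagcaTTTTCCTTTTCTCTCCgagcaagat
Eif2b5, chr16:20498777-20498836, plus strand: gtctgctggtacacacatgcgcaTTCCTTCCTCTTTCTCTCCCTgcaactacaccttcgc
In Eif3l and Eif2b5 most of the run lies before the first transcribed base, so their mRNAs need not begin with a run of that length. Of these 4 genes with the run, Eif3f rose and the others did not pass. Neither Eif3c nor Eif3m had it at the annotated start. The letters TGATGNAAN, a form of the element bound by ATF4 with a C/EBP partner, searched on both strands, were present in the window of 1 member, Eif2s3x, and in 3.95% of all windows. The cyclic AMP response element TGACGTCA was found in none of the 46 windows and in 1.79% of all. A match is a description of letters and not of binding.

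Levels of subunits can be compared per length of transcript. As mean log2 CPM per kilobase of the longest annotated transcript, over all samples of the authors' fit, 11 of the 14 eIF3 genes lay between 5.92 and 6.77, led by Eif3c at 6.77 and Eif3h at 6.68. Below them were Eif3f at 5.33, Eif3j2 at 3.32 and Eif3j1 at 2.29 log2 CPM per kilobase. The levels of Eif3j2 and Eif3j1 are uncertain, because 87.4% and 51.0% of their 75-base words occur in other transcripts. The eIF2 genes were at 6.39 for Eif2s2, 5.53 for Eif2s3x, 5.08 for Eif2s3y and 4.65 for Eif2s1 on the same scale. Of these, Eif2s3x and Eif2s2 share 35.7% and 22.4% of such words, so their levels are uncertain too. The exchange factor genes ran from 4.67 for Eif2b5, beside the 4.65 of Eif2s1, to 2.60 for Eif2b3. The order of neighbours carries no error, because the table gives no spread for a level, and the longest transcript need not be the one expressed in islets.

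**Figure D3:**
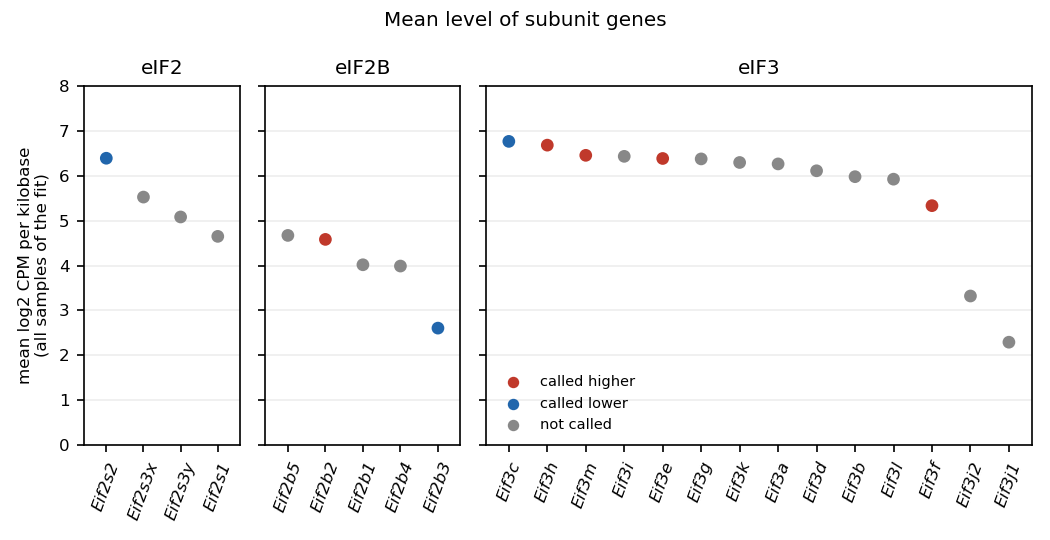
Mean level over all samples of the fit (vertical axis, log2 CPM per kilobase of the longest transcript) of the subunit genes of eIF2, eIF2B and eIF3, ordered within each complex; colours mark the call between Cre+T and Cre-T. Of the 14 eIF3 genes 11 lie between 5.92 and 6.77, above the eIF2B genes, of which the highest is Eif2b5 at 4.67.

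In the eIF4 group, 3 of 11 genes rose, 1 fell and 7 did not pass; the median was 0.092 log2 units, per the authors' deposited table. The gene that fell was Eif4g3, a paralogue of the cap-complex scaffold Eif4g1, to 0.749 of the Cre-T level, at -0.42 ± 0.073 at a limma adjusted p of 0.00097 per the authors' deposited table. Eif4g1 itself stood at -0.11 ± 0.045 (limma adjusted p = 0.0668), and Eif4g2, a relative that lacks the binding site for eIF4E, at -0.055 ± 0.046 (limma adjusted p = 0.349) per the authors' deposited table. All 3 scaffold genes had negative values. Their precision was high, and the 95% intervals of the fold were 0.868 to 0.991 for Eif4g1 and 0.900 to 1.03 for Eif4g2 per the authors' deposited table.

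Eif4h, a cofactor that stimulates the helicase eIF4A, rose 1.29-fold, by 0.37 ± 0.095 log2 units at a limma adjusted p of 0.00841 per the authors' deposited table. Its relative Eif4b, at 0.21 ± 0.082, narrowly missed the threshold, at a limma adjusted p of 0.0527 per the authors' deposited table. Among the helicases, Eif4a3, which serves in the exon junction complex rather than in initiation, rose by 0.22 ± 0.049 log2 units at a limma adjusted p of 0.00402 per the authors' deposited table. The initiation helicases Eif4a1 (-0.019 ± 0.064, limma adjusted p = 0.830) and Eif4a2 (0.092 ± 0.076, limma adjusted p = 0.348) did not pass per the authors' deposited table. Eif4a1 shares 62.9% of its 75-base words with the pseudogene Eif4a-ps4, which makes its value uncertain. Of the cap-binding proteins, Eif4e3, an atypical member of the family, rose by 0.34 ± 0.083 log2 units at a limma adjusted p of 0.00675 per the authors' deposited table. The main cap-binding gene Eif4e stood at 0.17 ± 0.073 (limma adjusted p = 0.0714) and the translational repressor Eif4e2 at 0.068 ± 0.076 (limma adjusted p = 0.497) per the authors' deposited table.

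Called eIF4 genes lie on chromosome 4 from 137993022 to 138208508 (Eif4g3), chromosome 5 from 134619721 to 134639490 (Eif4h), chromosome 11 from 119288363 to 119300089 (Eif4a3) and chromosome 6 from 99625135 to 99666771 (Eif4e3). Eif4g3 and Eif4h share no 75-base word with another gene. Eif4a3 shares 13.0% of its words with other transcripts, and Eif4e3 9.50% with Gm20696, which overlaps its exons on the same strand.

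In the eIF1 group, eIF1 and eIF1A act in scanning for the start codon, while Eif1ad was included by its name. Eif1a, for the autosomal form of eIF1A, rose 1.32-fold, by 0.40 ± 0.12 log2 units at a limma adjusted p of 0.0196 per the authors' deposited table. The X-linked form Eif1ax stood at 0.17 ± 0.076 (limma adjusted p = 0.0891), Eif1 at 0.18 ± 0.073 (limma adjusted p = 0.0649) and its close relative Eif1b at 0.11 ± 0.074 (limma adjusted p = 0.247) per the authors' deposited table. Eif1ad, a protein that shares the fold of eIF1A, fell to 0.754 of the Cre-T level, at -0.41 ± 0.065 at a limma adjusted p of 0.00055 per the authors' deposited table. Eif1ad is annotated on chromosome 19 from 5366741 to 5371526, and its exons overlap those of Banf1 on the opposite strand, and 14.3% of its 75-base words are shared with Banf1. Banf1 was lower too, at -0.37 ± 0.10 at a limma adjusted p of 0.0114 per the authors' deposited table. The strand setting of the counting is not given in the sources used here, so reads from the overlap cannot be told apart. The same holds for Eif2a with Serp1 (-0.23 ± 0.080, limma adjusted p = 0.0358) and Eif3j1 with Spg11 (-0.39 ± 0.087, limma adjusted p = 0.00418) per the authors' deposited table, where the neighbour fell and the initiation factor gene had a positive value that did not pass. The longest Eif2a transcript, though, shares no 75-base word with Serp1. Eif2b4 overlaps Snx17, which rose (0.16 ± 0.061, limma adjusted p = 0.0484), and Eif5b overlaps Rev1 (0.20 ± 0.097, limma adjusted p = 0.123) per the authors' deposited table. Eif3m overlaps Ccdc73 and Eif6 overlaps Gm16098 on the opposite strand, and neither partner had a row. Eif1 shares 25.6% of its 75-base words with other transcripts and Eif5b 16.6% with Rev1.

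In the eIF5 group, Eif5, which triggers GTP hydrolysis on eIF2, stood at 0.075 ± 0.071 (limma adjusted p = 0.420) and Eif5b, which joins the ribosomal subunits, at 0.12 ± 0.085 (limma adjusted p = 0.268) per the authors' deposited table. Eif5a, a factor that carries the modified amino acid hypusine and acts mainly in elongation, stood at -0.021 ± 0.056, at a limma adjusted p of 0.786 per the authors' deposited table. Its less abundant paralogue Eif5a2 fell to 0.727 of the Cre-T level, at -0.46 ± 0.087 at a limma adjusted p of 0.00157 per the authors' deposited table. Per kilobase, Eif5a was at 8.14 and Eif5a2 at 1.99 mean log2 CPM. Eif5a2 lies on chromosome 3 from 28781276 to 28798846. Of the enzymes that make hypusine, Dhps fell (-0.34 ± 0.10, limma adjusted p = 0.0175) and Dohh stood at 0.16 ± 0.089 (limma adjusted p = 0.163) per the authors' deposited table. Eif6, which keeps the large ribosomal subunit from joining too early, rose 1.30-fold, by 0.38 ± 0.11 log2 units at a limma adjusted p of 0.0130 per the authors' deposited table. The gene is annotated on chromosome 2 from 155819832 to 155826925. Eif2a, for an alternative carrier of the initiator tRNA, was at 0.19 ± 0.078 (limma adjusted p = 0.0643) and Eif2d at -0.16 ± 0.071 (limma adjusted p = 0.0927) per the authors' deposited table.

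Set side by side, each group held between 1 and 5 called genes. The counts were 2 of 5 for eIF1, 1 of 4 for eIF2, 2 of 5 for eIF2B, 5 of 14 for eIF3, 4 of 11 for eIF4 and 1 of 4 for eIF5, beside 37.6% of all rows. Median log2 fold changes were 0.17 for eIF1, -0.085 for eIF2, -0.061 for eIF2B, 0.023 for eIF3, 0.092 for eIF4 and 0.027 for eIF5 per the authors' deposited table. No difference between groups was tested, since their genes are not replicates. Of the 30 genes that did not pass, 16 had a 95% interval that lay within 0.25 log2 units of 0, a change of less than 1.19-fold either way. Of the same 30 genes, 9 had an adjusted p between 0.05 and 0.1, Eif4g1 being in both counts, which limits what can be read from their missing the threshold. That is 9 of the 46 genes, a larger share than the 9.69% of all rows, and the difference was not tested.

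Other genes that act on initiation, from lists drawn from textbook knowledge, included larger fold changes than any initiation factor gene. The PERK branch was not called at the kinase, where Eif2ak3 stood at 0.15 ± 0.12 (limma adjusted p = 0.337) per the authors' deposited table. Ppp1r15a, the stress-induced subunit that directs a phosphatase to eIF2, fell to 0.583 of the Cre-T level, at -0.78 ± 0.16 at a limma adjusted p of 0.00262 per the authors' deposited table. Its constitutive counterpart Ppp1r15b stood at 0.16 ± 0.092 (limma adjusted p = 0.185) per the authors' deposited table. Eif2ak4, the amino acid sensor GCN2, rose by 0.25 ± 0.095, just inside the threshold at a limma adjusted p of 0.0499 per the authors' deposited table. Of the 10 measured kinases, phosphatase subunits and regulators of eIF2, 1 rose, 1 fell and 8 did not pass, with a median of 0.031 per the authors' deposited table.

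Among 14 measured repressors and regulators of the cap-binding complex, 3 rose and 4 fell, with a median of -0.0021 per the authors' deposited table. Eif4ebp1, which binds eIF4E and blocks its contact with eIF4G, fell to 0.449 of the Cre-T level, at -1.16 ± 0.18 at a limma adjusted p of 0.00052 per the authors' deposited table. Its paralogue Eif4ebp2 stood at -0.029 ± 0.047 (limma adjusted p = 0.653) per the authors' deposited table, so of these binding proteins the change of Eif4ebp1 passed and that of Eif4ebp2 did not, and their difference was not tested. Pdcd4, an inhibitor of eIF4A, rose 1.63-fold, by 0.71 ± 0.14 log2 units at a limma adjusted p of 0.00175 per the authors' deposited table. Mknk1, a kinase of eIF4E, fell (-0.44 ± 0.098, limma adjusted p = 0.00394), while Rps6kb1, the kinase S6K1, rose by 0.34 ± 0.098 (limma adjusted p = 0.0140) per the authors' deposited table.

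Of 12 accessory factors of initiation, 3 rose and 2 fell, with a median of -0.0016 per the authors' deposited table. The helicase gene Dhx29 (-0.40 ± 0.10, limma adjusted p = 0.00719) and Bzw2, an eIF5 mimic (-0.34 ± 0.079, limma adjusted p = 0.00490), fell per the authors' deposited table. The helicase gene Ddx3x (0.48 ± 0.15, limma adjusted p = 0.0205) and Bzw1, the other eIF5 mimic (0.27 ± 0.092, limma adjusted p = 0.0296), rose per the authors' deposited table, as did Paip2, an inhibitor of the poly(A)-binding protein (0.18 ± 0.058, limma adjusted p = 0.0218).

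Genes of later steps of translation were counted in the same way. Of 9 cytosolic elongation genes, Eef2, the translocase, rose by 0.21 ± 0.067 (limma adjusted p = 0.0260) while the selenocysteine elongation factor Eefsec (-0.86 ± 0.10, limma adjusted p = 0.00013) and Eef1a2 (-0.47 ± 0.17, limma adjusted p = 0.0415) fell per the authors' deposited table, with a median of -0.11. The 7 genes listed under termination and rescue include N6amt2, which acts on an elongation factor. Of the 7, limma called none higher (1 at an unadjusted p under 0.05) and 3 lower. They were N6amt1, which methylates a release factor (-0.50 ± 0.093, limma adjusted p = 0.00137), the rescue factor Pelo (-0.30 ± 0.082, limma adjusted p = 0.0104) and N6amt2, a relative in name that methylates an elongation factor (-0.35 ± 0.12, limma adjusted p = 0.0268) per the authors' deposited table, with a median of -0.20. Of 8 mitochondrial translation factors, limma called none higher (1 at an unadjusted p under 0.05) and 3 lower. They were the recycling factor Gfm2 (-0.55 ± 0.11, limma adjusted p = 0.00266), the elongation factor Gfm1 (-0.33 ± 0.091, limma adjusted p = 0.0123) and the initiation factor Mtif2 (-0.24 ± 0.078, limma adjusted p = 0.0245) per the authors' deposited table, with a median of -0.15. Of 78 cytosolic ribosomal protein genes, 9 rose and 2 fell, or 14.1% called, with a median of 0.067 per the authors' deposited table. Across the lists of other translation genes, ribosomal proteins aside, 24 of 62 genes were called, or 38.7%, again near the 37.6% of all rows.

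A list of ATF4, the transcription factor whose translation rises when eIF2 is phosphorylated, and its targets was drawn up with earlier results of these data known and gives no independent support. Of 18 listed genes 17 were measured. Of these, 16 fell, or 94.1%, beside 20.1% of all rows, and limma called none higher, also at an unadjusted p under 0.05. The median was -0.81 log2 units, beside 0.053 for the initiation factors, per the authors' deposited table. The gene of the factor, Atf4, fell by 0.27 log2 units, at a limma adjusted p of 0.0075 per the authors' deposited table.

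**Figure D4:**
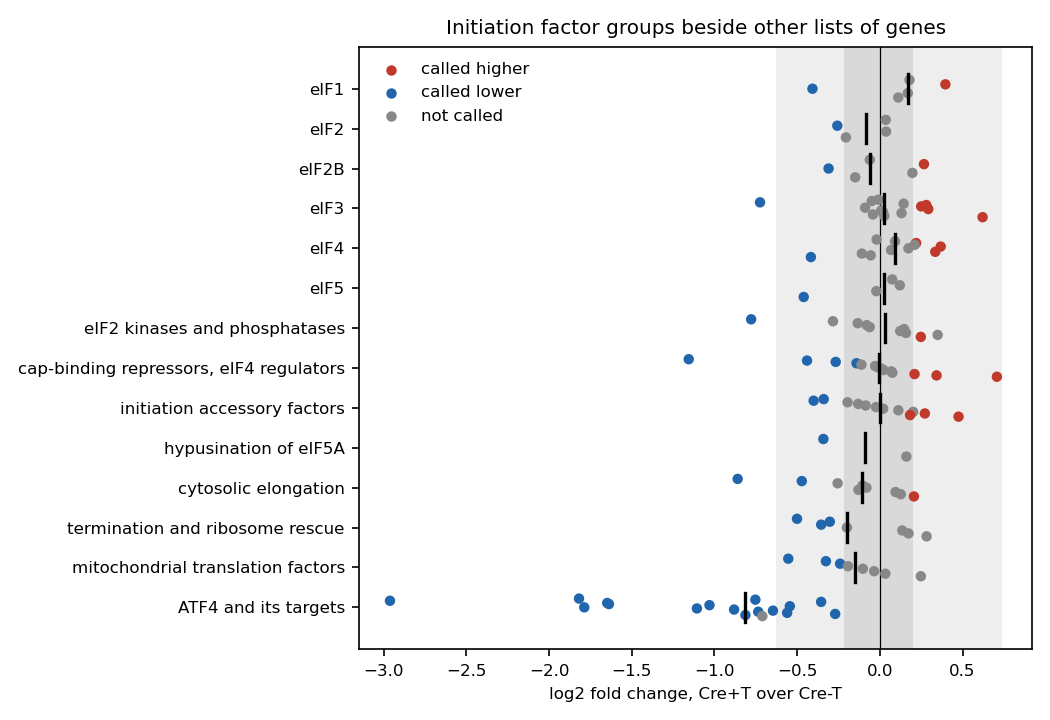
Log2 fold change (Cre+T over Cre-T, horizontal axis) of each gene in the initiation factor groups and in other lists; each point is a gene, coloured by its call, black bars are list medians, and the darker and lighter grey bands hold the middle 50% and 90% of all rows. Medians of the eIF1 to eIF5 groups lie between -0.085 and 0.17 (Eif2a, Eif2d and Eif6 are not drawn), while the list of ATF4 and its targets has a median of -0.81.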

How the data were processed

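Total RNA was column-purified with DNase treatment and made into libraries with a TruSeq kit, per the labels' protocols. The submitters' processing notes name TopHat2, the build GRCm38 and limma. Not given in the sources used here are versions, the counting tool and its strand setting, any filter on low genes and which samples were fitted. Per the file headers, the deposited table holds log2 fold changes, mean expression (read as log2 CPM), moderated t scores and log-odds scores. It also holds each gene's p-value, q-value and adjusted p-value, for 10208 genes and with no values per sample. The deposited adjusted p-values were checked to be Benjamini-Hochberg values over all rows, and the q-values to be 0.325 times these.

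Standard errors are the size of the log2 fold change over t, and 95% intervals use the 16.1 degrees of freedom that the p-values imply. Depth and spread per sample are unknown, so precision is that of these errors. Genes count as called at an adjusted p under 0.05. Versionless gene IDs were looked up in GENCODE M21 on GRCm38 (10190 matched, 18 did not), which gave positions, exon overlaps and shared 75-base words on either strand; promoters came from RefSeq. The calculations used Python 3.11.15 with numpy 2.4.6, pandas 2.3.3 and scipy 1.17.1, and the re-adjustment was tested on simulated data. Every initiation factor gene is named; those called and all subunits of eIF2 and eIF2B get full values, and of other lists at most the 4 called genes of smallest p and their paralogues; Dohh, Atf4, the overlapping neighbours and the Y-linked genes were added after their values were seen. The members and lists were chosen with earlier results of these data known. Alternatives were other thresholds, Holm adjustment, the authors' q-value, a minimum fold, minimum expression levels, 4 other scalings and a narrower membership.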

Additional observations from a re-analysis of the deposited data

How the results depend on the processing

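No paired analysis was possible because the deposited table holds no values per sample, and for the same reason leaving out single samples was not possible. No name was repeated among the members, so the choice of row had no alternative value. The count of 16 called initiation factor genes became 25 (16 higher, 9 lower) both at an adjusted p under 0.1 and with the authors' q-value under 0.05, and 1, Eif3c, with Holm adjustment. It lay between 12 and 20 under the other alternatives. Over all rows 37.6% were called, and 47.3%, 54.4% and 1.35% in these 3 settings. With Holm adjustment the counts were 0 for eIF1, eIF2, eIF2B, eIF4 and eIF5, 1 for eIF3 and 1 for the other translation lists. At an adjusted p under 0.01 they were 1 for eIF1, 1 for eIF2B and 9 for the other lists, in place of 2, 2 and 24, and 26.1% of initiation factor genes were called beside 18.0% of all rows. At 0.1, and likewise with the q-value, 4 of eIF1 and 7 of eIF4 were called. With a minimum of 1.2-fold 0 of eIF2 were called. Among genes whose mean expression reached the median 1 of eIF2B, 0 of eIF5 and 12 of the other lists were called, where genes below the median, Eif2b3 and Eif5a2 among them, were not tested. With summed expression set equal 1 of eIF1 and 2 of eIF5 were called, the other translation lists had 1 gene higher and 31 lower in place of 8 and 16, and the accessory factors 0 and 6 in place of 3 and 2. With the running median of genes of like expression removed, 1 of eIF2B was called, and Eif2b3 lost its call. Eif3c was called under all 11 alternatives that recompute a single gene.

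Subtracting 1 constant from every gene turns negative exactly the values between 0 and that constant, so the signs below follow from the size of the shift and do not bear on stability. With summed expression set equal the log2 fold changes that turned negative were Eif5 at -0.068, Eif4a2 at -0.051, Eif2s3x at -0.10, Eif3l at -0.12, Eif5b at -0.022, Eif3i at -0.13, Eif2s1 at -0.11, Eif1b at -0.031, Eif4e2 at -0.074, Eif3j1 at -0.12 and Eif3j2 at -0.011. With ribosomal protein genes centred on 0 they were Eif2s3x at -0.029, Eif3l at -0.040, Eif3i at -0.058, Eif2s1 at -0.031 and Eif3j1 at -0.048. With the running median removed they were Eif2s3x at -0.024, Eif3l at -0.0085, Eif3i at -0.048 and Eif2s1 at -0.038. None of these genes was called under the authors' scaling, and the cause of changes between settings was not tested beyond the shifts themselves.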
